A study of Homo sapiens with 4 samples.

Results

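The 7 genes described here encode core transcription factors of human pluripotency: POU5F1, SOX2, NANOG, SALL4, PRDM14, ZFP42 and FOXD3. They were picked by symbol from a table of 19775 genes, and all 7 were listed there. The cells were H1, an established and unmodified line of human embryonic stem cells, held in E8, a defined medium with insulin, FGF2 and TGFβ. XMD892, used at 1 µM for 12 h, inhibits ERK5, the kinase that MAPK7 encodes. Poly(A) RNA of 2 such samples was sequenced as paired-end libraries, called replicate 1 and replicate 2. The labels also give 2 samples of H1 cells in E8 without the compound at 12 h, and these were not analysed here, because no column name matched theirs. Every value below is therefore a level in XMD892-treated cells or a gap between treated libraries, and none is an effect of the compound. The labels name no separate cultures behind the 2 libraries, and their spread may be technical.

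POU5F1 (the protein is called OCT4), SOX2 and NANOG form the core circuit of pluripotent cells. OCT4 and SOX2 bind side by side at many enhancers, their own genes and NANOG among them, so that the circuit sustains itself and holds lineage genes back. SALL4 and ZFP42 (also named REX1) are zinc finger factors, PRDM14 is a zinc finger factor with a PR domain, and FOXD3 is a forkhead factor of pluripotent cells and of the neural crest. POU5F1 and NANOG have many retrocopies in the human genome, which matters for counting their reads.

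A stretch of the POU5F1 coding sequence (bases 27 to 86 of the coding sequence) is shown with the matching stretch of a pair of its copies. It shows how few bases tell the copies apart there. Capitals in each copy mark the bases that differ from POU5F1, and capitals in POU5F1 mark the places where either copy differs. The sequences are GENCODE release 29 transcripts on GRCh38. POU5F1P3 differed at 2 bases of 60 and POU5F1P4 at 3.
POU5F1 (chromosome 6): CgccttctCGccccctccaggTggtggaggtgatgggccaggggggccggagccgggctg
POU5F1P3 (chromosome 12): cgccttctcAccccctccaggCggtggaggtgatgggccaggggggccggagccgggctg
POU5F1P4 (chromosome 1): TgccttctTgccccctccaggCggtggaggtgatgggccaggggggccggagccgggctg

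Promoters are shown because these factors are known to bind their own genes. RefSeq promoter windows (GRCh38.p14, 250 bases before to 50 after the start) were used for 4 of the 7 genes, SOX2, NANOG, ZFP42 and FOXD3. For NANOG and FOXD3 the RefSeq start differs from the start of the GENCODE gene used for levels. The NANOG window begins at 7789152, inside the GENCODE gene, which begins at 7787794. That of FOXD3 ends at 63322616, ahead of the GENCODE start at 63323041. The windows were searched on both strands for the octamer heptad TTTGCAT, recognised by POU factors, and for the SOX hexamers ACAATG and ACAAAG. The composite TTTGCATNACAATG, which joins the heptad and the first hexamer over 1 free base, was also searched, and its letters were chosen after the NANOG window was read. Capitals mark the matches in the windows below, and the first pair ends at the base before the start site.
NANOG, chr12:7789152-7789401, plus strand: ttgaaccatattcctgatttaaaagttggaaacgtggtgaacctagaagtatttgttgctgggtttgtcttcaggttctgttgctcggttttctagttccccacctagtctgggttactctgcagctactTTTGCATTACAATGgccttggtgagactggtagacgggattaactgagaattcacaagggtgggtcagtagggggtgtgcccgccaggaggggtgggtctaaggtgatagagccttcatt
SOX2, chr3:181711675-181711924, plus strand: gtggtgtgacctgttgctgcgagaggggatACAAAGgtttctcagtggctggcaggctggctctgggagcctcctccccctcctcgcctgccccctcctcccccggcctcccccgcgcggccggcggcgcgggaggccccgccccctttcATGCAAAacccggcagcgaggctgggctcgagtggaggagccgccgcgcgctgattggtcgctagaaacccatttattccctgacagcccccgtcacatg
FOXD3, chr1:63322431-63322456, plus strand: tctctcgtccCTTTGTtgacaattcc
ZFP42, chr4:187995769-187995794, plus strand: gcagtttctcCTTTGTtttacgtttg

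The composite lay in NANOG at positions -120 to -107 from the start site, a match fixed beforehand because its letters were chosen from that window. Of 35116 promoter windows of all RefSeq genes, 3 held it (0.00854%), NANOG among them. NANOG was matched by the heptad and by ACAATG within that composite only, so these matches were fixed with it and are no support. SOX2 held the heptad on the other strand, at positions -100 to -94, and ACAAAG further upstream. Besides NANOG, the heptad was in SOX2 alone of the 4 windows, and in 4.46% of all windows. ACAAAG was in 3 of the 4, SOX2, ZFP42 and FOXD3, against 16.1% of all windows. ACAATG was in NANOG alone of the 4, within the composite, and 10.8% of all windows held it. The ZFP42 match lay after the start site, at positions 9 to 14. All of these are matches of letters and show no binding.

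Reads over the 19775 listed genes summed to 18528689 in replicate 1 and 20217648 in replicate 2, recovered from the normalized counts as whole reads. These sums are called total reads here, and reads outside the listed genes are not in them. RPKM is used for levels, that is reads scaled by the length of the merged exons and by the library's total reads, which allows genes to be set side by side. Means are ± SD over the 2 libraries. Intervals are exact Poisson or exact binomial 95% intervals, and they cover counting error only. In bulk RNA, fewer cells that express a gene and less RNA in each cell cannot be told apart.

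POU5F1 was by far the most abundant of the 7 transcripts. It had 39373 reads in replicate 1 and 83719 in replicate 2, or 734 and 1430 RPKM, with a mean of 1082 ± 492 RPKM (SD, n = 2). That placed it 27th of the 19262 genes with a length. Counting error was small beside this gap: the Poisson interval ran from 727 to 741 RPKM in replicate 1 and from 1420 to 1440 in replicate 2. Its locus is on the minus strand of chromosome 6, from 31164337 to 31180731 (GRCh38), with 9 annotated transcripts over 6 exon blocks. Its merged exons of 2896 bases are longer than the principal transcript of 1420 bases, and with the length of that transcript, an alternative added after the data were seen, its level was 2206 RPKM. Of the 50-base windows of that transcript, 63.4% also occurred in a transcript of POU5F1B, POU5F1P3 or POU5F1P4. These 3 copies together were given 45 reads in replicate 1 and 138 in replicate 2, 0.114% and 0.165% of the reads given to POU5F1. How reads with several matches were handled is not given in the sources used here. TCF19, on the other strand, shares 248 bases of the POU5F1 exons (8.56%), and reads from these bases cannot be assigned without strand.

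SOX2, the partner of OCT4 at shared sites, was the second most abundant. It had 4200 reads in replicate 1 and 5018 in replicate 2, or 90.2 and 98.8 RPKM. The libraries were close, with a mean of 94.5 ± 6.06 RPKM (SD, n = 2). SOX2 is a gene of 1 exon of 2513 bases on chromosome 3, inside an intron of the noncoding gene SOX2-OT on the same strand, with which it shares 0 exon bases. Of its 50-base windows, 2.03% occurred in another gene's transcript.

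NANOG, the homeodomain factor of the core circuit, stood lower per length than SOX2. It had 2850 reads in replicate 1 and 3275 in replicate 2, or 28.5 and 30.04 RPKM, and the mean of 29.3 ± 1.07 RPKM had a narrow spread. The gene spans 7787794 to 7799141 on the plus strand of chromosome 12. Its copies NANOGP1 and NANOGP8 were given 156 reads together in replicate 1 and 159 in replicate 2, or 5.47% and 4.85% of the reads of NANOG. Of its 50-base windows, 16.1% occurred in transcripts of other genes, most often in NANOGP8 (12.1%).

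SALL4, a zinc finger factor that recruits the NuRD repressor complex, was one of the genes on which the libraries stood apart. It had 2977 reads in replicate 1 and 1669 in replicate 2, or 27.8 and 14.3 RPKM, with a mean of 21.07 ± 9.57 RPKM (SD, n = 2). Its locus is on the minus strand of chromosome 20, from 51782331 to 51802520, and 0.62% of its 50-base windows occurred elsewhere. PRDM14, which silences lineage genes in pluripotent and germ cells, showed the same order of the libraries. It had 1631 reads in replicate 1 and 870 in replicate 2, or 36.03 and 17.6 RPKM, with a mean of 26.8 ± 13.02 RPKM. It lies on the minus strand of chromosome 8 in 9 exon blocks, and none of its 2295 windows of 50 bases occurred in a transcript of another gene.

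ZFP42, a widely used marker of undifferentiated cells, ranked after SOX2 and had the smallest gap in normalized counts. Scaled by total reads, as in RPKM, the gaps of NANOG, FOXD3 and SOX2 were smaller. ZFP42 had 3866 reads in replicate 1 and 3792 in replicate 2, or 78.6 and 70.6 RPKM, with a mean of 74.6 ± 5.61 RPKM (SD, n = 2). Its locus is on the plus strand of chromosome 4, from 187995771 to 188005050. FOXD3 had the lowest mean RPKM, although in replicate 2 it stood above SALL4 and PRDM14. It had 767 reads in replicate 1 and 895 in replicate 2, or 19.8 and 21.2 RPKM, with a mean of 20.53 ± 0.974 RPKM. FOXD3 is a gene of 1 exon of 2086 bases on the plus strand of chromosome 1, from 63323041 to 63325126. The antisense gene FOXD3-AS1 shares 179 of these bases (8.58%), and without a known strand setting their reads cannot be told apart.

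**Figure D1:**
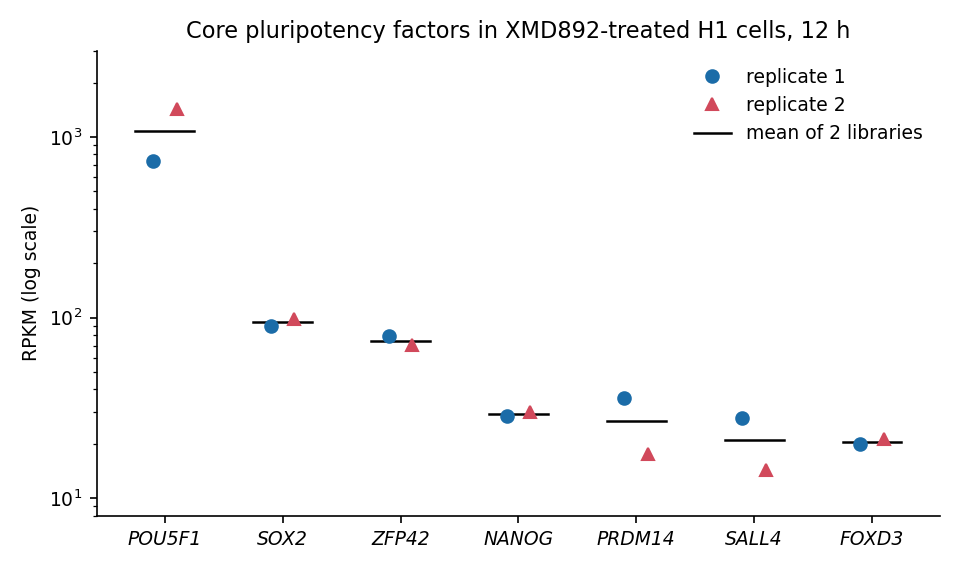
RPKM on a log axis of the 7 core factors in the 2 XMD892 libraries, with circles for replicate 1, triangles for replicate 2 and a bar at the mean. POU5F1 sits far above the others at 1082 RPKM, and replicate 1 is the higher library for PRDM14 and SALL4 and the lower for POU5F1.

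By mean RPKM the order was POU5F1, SOX2, ZFP42, NANOG, PRDM14, SALL4 and FOXD3. The first 4 were separated in both libraries: POU5F1 was 11.4-fold above SOX2, SOX2 1.27-fold above ZFP42 and ZFP42 2.55-fold above NANOG, and in each of these pairs the lower library of the higher gene exceeded the higher library of the lower gene. The size of the POU5F1 ratio depends on the length used. With the principal transcript as the length, POU5F1 stood at 2206 RPKM and SOX2 at 94.5. NANOG, PRDM14, SALL4 and FOXD3 overlapped with their neighbours in this order, and their full order was not settled by 2 libraries. NANOG was above FOXD3 in both, and PRDM14 was above SALL4 within each library. All 7 exceeded 10 RPKM in both libraries, and their median of 29.3 RPKM stood against 2.31 RPKM over the 19262 genes with a length. FOXD3, the lowest by mean, was above 88.9% of those genes. POU5F1 took 70.7% of the reads of the 7 genes in replicate 1 and 84.4% in replicate 2. The 7 together took 0.30% and 0.491% of the reads of all listed genes, and without POU5F1 the other 6 took 0.0879% and 0.0768%.

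The ratio of the factors to each other was steady for some pairs and not for others. On merged exons, POU5F1 per length was 8.13 times SOX2 in replicate 1 and 14.5 times in replicate 2. Against PRDM14 it was 20.4 times in replicate 1 and 81.2 times in replicate 2, and against SALL4 26.4 and 99.98 times. NANOG stood at 0.316 of SOX2 in replicate 1 and 0.304 in replicate 2. PRDM14 stood at 1.29 of SALL4 in replicate 1 and 1.23 in replicate 2, so that this pair kept its ratio while both differed between the libraries. With 2 libraries these are descriptions, and no test was made.

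The gap between the libraries was expressed as log2 of the normalized count plus 1 in replicate 1 minus that in replicate 2, so that a positive value means higher in replicate 1. Of the 7 factors, 1 was at least 2-fold apart, against 10.9% of the 16148 genes tested, those whose normalized count averaged 10 or more. That gene was POU5F1, with 42265 normalized counts in replicate 1 and 88345 in replicate 2 and a log2 gap of -1.06 (interval -1.08 to -1.05). Past 1.5-fold stood 3 of the 7, against 26.6% of all tested genes. The other two were PRDM14, with 1751 and 918 normalized counts and a gap of 0.93 (0.81 to 1.05), and SALL4, with 3196 and 1761 normalized counts and a gap of 0.86 (0.77 to 0.95). PRDM14 and SALL4 were higher in replicate 1, and POU5F1 in replicate 2. Large gaps were rarer among abundant genes: of the 5069 genes with at least the mean normalized count of FOXD3, a minimum chosen after the data were seen, 1.81% were 2-fold apart and 11.9% 1.5-fold apart.

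The remaining 4 factors differed little. SOX2 had a gap of -0.23 (interval -0.29 to -0.17), FOXD3 of -0.20 (-0.34 to -0.06), NANOG of -0.18 (-0.25 to -0.10) and ZFP42 of 0.05 (-0.01 to 0.12). On normalized counts, the interval left out equal levels for 6 of the 7, all but ZFP42, against 58.1% of all tested genes. The 58.1% shows that the spread between these libraries exceeds counting error for most genes. It includes genes with far fewer reads and wider intervals, and was not computed for genes as abundant as the 7. The 6 of 7 is therefore not an excess shown for the factors. Which factors were set apart depended on the scale. On total reads, ZFP42 stood at 0.15, SOX2 at -0.13, FOXD3 at -0.10 and NANOG at -0.07. The RPKM intervals of the 2 libraries then overlapped for NANOG and FOXD3, and not for ZFP42. The median gap of the 7 was -0.18, and that of all tested genes -0.02. The median size of the gap, whatever its direction, was 0.23 for the 7 and 0.32 for all tested genes. The tested genes include many less abundant than the 7, where large gaps were commoner, so these medians are not a like comparison. The median size was not computed for genes as abundant as the 7. With total reads as the scale, the median of all genes shifted by 0.10, and POU5F1 then stood at -0.96 and PRDM14 at 1.03, so that PRDM14 and not POU5F1 was the gene past 2-fold.

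**Figure D2:**
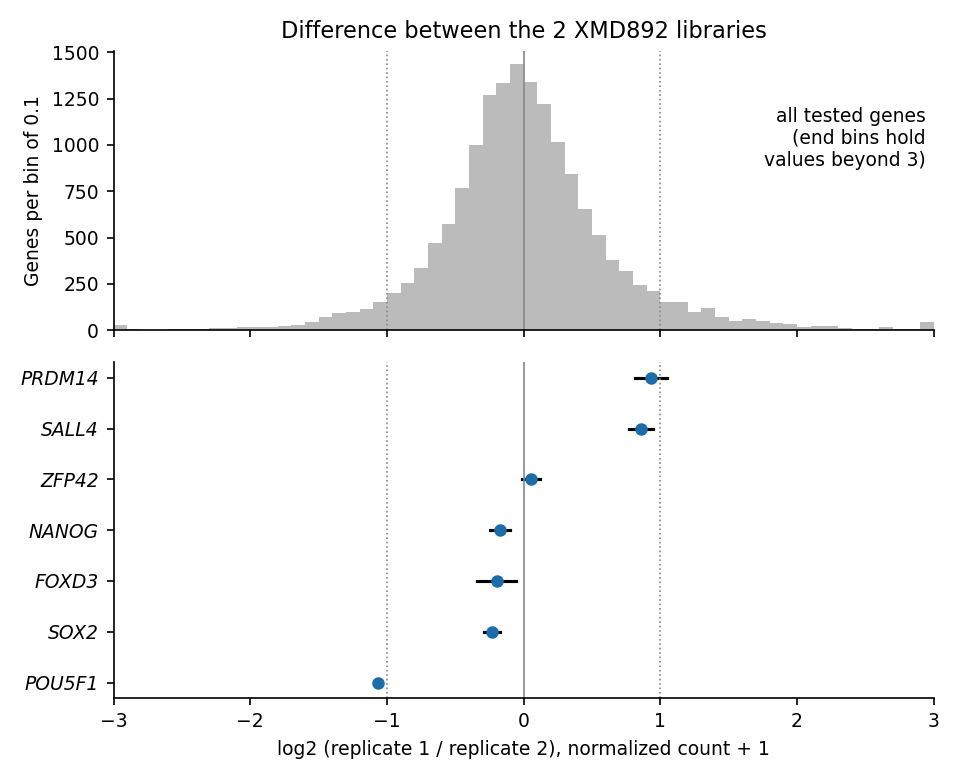
Top, number of genes per bin of 0.1 of the log2 gap between replicate 1 and replicate 2 over 16148 tested genes. Bottom, the gap of each core factor with its exact binomial interval as a black line, which is shorter than the symbol for POU5F1. Dotted lines mark 2-fold, and 4 of the 7 factors lie close to 0.

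The relatives of each factor were set beside it. POU5F1 was the highest of the 10 listed POU genes. On merged exons it stood 133-fold above POU2F1 (OCT1, a widely expressed factor) at 8.12 ± 1.56 RPKM (SD, n = 2). SOX2 was the highest of 17 listed SOX genes, but only 1.84-fold above SOX4, a factor of progenitor cells, at 51.3 ± 14.02 RPKM. Its closest relatives SOX3 and SOX1 stood at 20.9 ± 6.25 and 0.68 ± 0.17 RPKM. PRDM14 was the highest of 9 listed PRDM genes and FOXD3 the highest of 3 listed FOXD genes. PRDM4 followed PRDM14 at 6.01 ± 1.41 RPKM, and FOXD1 followed FOXD3 at 3.21 ± 1.63 RPKM. ZFP42, which arose from a copy of YY1, stood 3.79-fold above YY1 at 19.7 ± 1.88 RPKM. SALL4 stood at place 3 of the 4 SALL genes, below SALL2 at 62.3 ± 8.67 and SALL1 at 22.3 ± 5.66 RPKM. The place below SALL1 rested on replicate 2, with 14.3 RPKM for SALL4 and 18.3 for SALL1, since replicate 1 had 27.8 for SALL4 and 26.3 for SALL1. All 4 SALL genes were higher in replicate 1, with a median gap of 0.30, and remained so under the other scales tried, while 47.9% of all tested genes were higher there.

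Other regulators of the network spanned a wide range of levels. The table held all 24 genes of the network list, with a median level of 35.4 RPKM, and 18 of them passed 1 RPKM in each library, against 59.6% of all genes with a length. At the top stood LIN28A, which blocks maturation of let-7 microRNAs, at 469 RPKM, the noncoding RNA ESRG at 403 ± 53.5 RPKM, and DNMT3B, a de novo DNA methyltransferase, at 336 RPKM. The naive factors KLF4, KLF5, ESRRB and TBX3 and the noncoding RNA LINC-ROR averaged below 1 RPKM, from 0.95 RPKM for KLF4 to 0.11 RPKM for TBX3. TFCP2L1, also a naive factor, stood above that level, with 1.55 RPKM in replicate 1 and 1.27 in replicate 2. OTX2, a factor of primed cells, had 2.11 RPKM in replicate 1 and 0.51 in replicate 2. Of the 24, 20 were higher in replicate 1, against 47.9% of all tested genes, with a median gap of 0.17. At least 2-fold apart were 2 of the 24, against 10.9% of all tested genes. They were OTX2 (gap 1.91, on 128 and 34 reads) and LINC-ROR (1.11, on 18 and 8 reads, with an interval of -0.08 to 2.60). DNMT3B had a gap of 0.70, in the direction of SALL4 and PRDM14, and 4 of the 24 had a gap in the direction of POU5F1. These were DPPA2 (-0.93, on 142 and 276 reads), DPPA4 (-0.43), ESRRB (-0.31, on 22 and 28 reads) and L1TD1 (-0.20). The list mixes primed and naive factors and was chosen with earlier results of these data known.

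Proteins that the core factors work with were also transcribed. Of 18 genes for repressor complexes (NuRD, polycomb and partners), 17 passed 1 RPKM in each library, against the same 59.6% of all genes, and the median level was 17.2 RPKM. The histone demethylase gene KDM1A stood at 71.7 ± 1.30 RPKM, the NuRD remodeller CHD4 at 37.96 ± 6.99 and its partner MTA2 at 32.5 ± 0.92 RPKM. CBFA2T2, whose protein binds PRDM14, stood at 2.60 ± 0.18 RPKM. In this list 10 of 18 genes were the higher ones in replicate 1, and the median gap was 0.02. Of 15 genes for coactivators and other cofactors, all passed 1 RPKM in each library, led by TRIM28 at 296 ± 104, PARP1 at 122 ± 3.42 and RAD23B at 70.2 ± 4.40 RPKM. Of these 15, 9 were higher in replicate 1 and 1 was at least 2-fold apart, against 10.9% of all tested genes. That gene was CREBBP, named after its value was seen. CREBBP, a histone acetyltransferase, had 2660 reads in replicate 1 and 1231 in replicate 2, a gap of 1.14 (1.04 to 1.23).

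The cell type was checked against markers. All 8 markers of pluripotent cells passed 1 RPKM in each library, and their median level was 203 RPKM. Of the markers of other cells, 0 of 2 listed endoderm genes, 0 of 3 listed amnion and trophoblast genes and 0 of 2 listed neural crest genes reached that level in both. The counts were 2 of 4 for fibroblasts, 1 of 5 for mesoderm, 1 of 3 for neural cells and 2 of 4 for germ cells. The highest endoderm genes were CXCR4 at 0.54 and GATA4 at 0.034 RPKM. KRT7, GATA3 and TFAP2A of the amnion and trophoblast list stood at 0.99, 0.090 and 0.043 RPKM. SOX17, FOXA2, GATA6 and CER1 (endoderm), CDX2, HAND1 and CGB5 (amnion and trophoblast), SOX10 and TFAP2B (neural crest), PAX6 and NEUROD1 (neural) and DDX4 (germ cells) were not listed in the table, and neither were the fibroblast genes COL3A1, DCN, LUM and TWIST1. TBXT was listed under its older symbol T, with 8 reads in replicate 1 and 9 in replicate 2. SNAI2 and PAX3, the listed markers of the neural crest, where FOXD3 is also expressed, stood at 0.13 and 0.013 RPKM.

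Some of these markers differed between the libraries along with SALL4, PRDM14 and POU5F1. The 3 listed neural markers summed to 171 RPKM in replicate 1 and 90.3 in replicate 2, nearly all from NES (nestin), which pluripotent cells also carry. SOX1 and DCX, the other listed neural genes, averaged 0.68 and 0.16 RPKM. The 4 listed fibroblast markers summed to 47.8 RPKM in replicate 1 and 69.1 in replicate 2. The direction of that sum came from THY1, which pluripotent cells also carry, and which had 3698 reads in replicate 1 against 7685 in replicate 2. The other 3 were higher in replicate 1: COL1A1 with 1429 and 196 reads, COL1A2 with 1242 and 867, and PDGFRB with 31 and 16, and the median gap of the 4 was 0.74. The 5 listed mesoderm markers with a length summed to 10.3 and 13.01 RPKM, where KDR led at 9.23 RPKM. MIXL1 had 31 reads in replicate 1 and 104 in replicate 2, and MESP1 had 12 and 21. The 4 listed germ cell markers summed to 25.01 RPKM in replicate 1 and 18.6 in replicate 2, led by SOX15 at 13.4 RPKM and TFAP2C at 8.15 RPKM, both known from pluripotent cells too, while DAZL had 17 and 2 reads. The part of these markers in the gaps of SALL4, PRDM14 and POU5F1 was not tested.

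**Figure D3:**
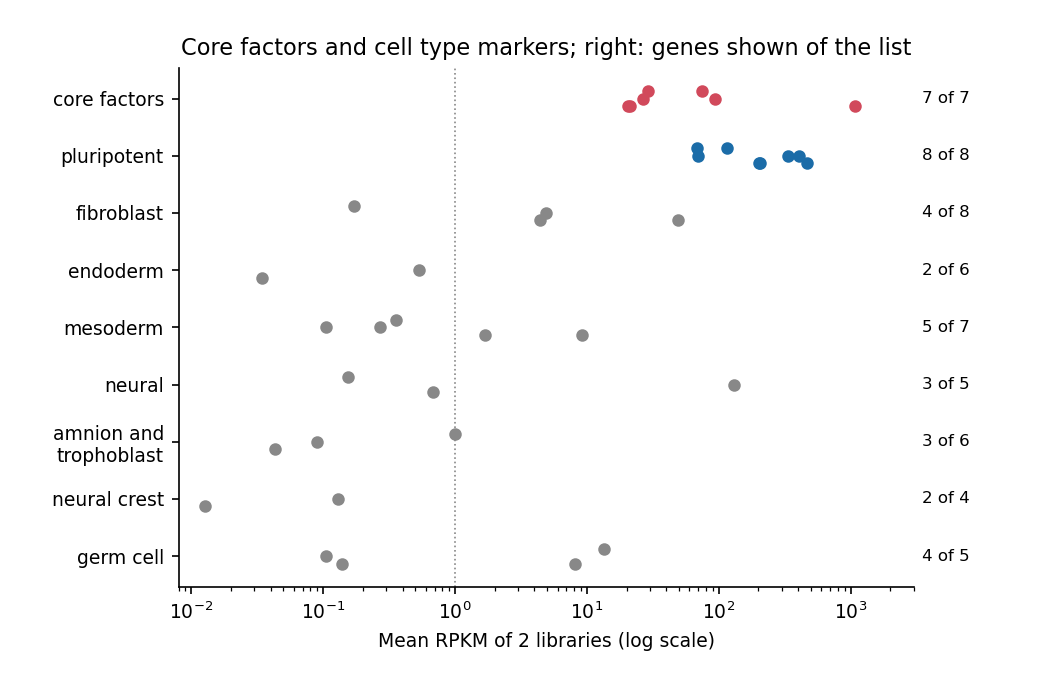
Mean RPKM over the 2 XMD892 libraries, on a log axis, of the 7 core factors (red), the 8 pluripotent markers (blue) and the listed markers of other cells (grey), with the number of genes shown of each list at the right and a dotted line at 1 RPKM. Core factors and pluripotent markers lie above 10 RPKM, and most other markers lie below 1, with NES and THY1 the highest exceptions.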

How the data were processed

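Poly(A) RNA of H1 cells was sequenced as paired ends, per the labels. The authors deposited 1 table of normalized signal: gene counts divided by 1 size factor per library. The values themselves show this, since 100% were whole multiples of 1 step per column within 0.01 reads, and the steps gave size factors of 0.932 (replicate 1) and 0.948 (replicate 2). The build hg38 and the tools featureCounts 1.5.3, STAR, Trimmomatic 0.36 and DESeq2 1.26.0 come from the submitters' processing notes, which do not say what each did. Annotation, strand setting and gene filter: not given in the sources used here.

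Columns were matched to samples by treatment, time and replicate number. The other 7 columns matched no sample and were not used, among them a further column of XMD892 at 12 h and the untreated columns, which carry another time. The planned edgeR test against E8 was therefore not run. RPKM used merged exons of GENCODE 29 and total recovered reads. Gaps used a pseudocount of 1 and a minimum mean normalized count of 10. TMM factors came from edgeR 4.0.16 in R 4.3.3, and intervals from scipy 1.17.1. Read recovery and interval coverage were tested on simulated data. The members and lists were chosen with earlier results of these data known. Named genes are the 7 factors, the highest relatives, and the 3 highest of each list with markers not listed. Also named, after their values were seen, were OTX2, LINC-ROR, DPPA2, DPPA4, L1TD1, ESRRB, KLF4, KLF5, TBX3, TFCP2L1, CREBBP, CBFA2T2, SOX3, SALL1 and PDGFRB. The parts of the naming rule that needed E8 were not applied. Some items of the lists are not reported here.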

Additional observations from a re-analysis of the deposited data

How the results depend on the processing

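Alternatives that compare XMD892 with E8 (DESeq2, no filter, pseudocount, leaving out a replicate) were not run. No paired analysis was possible because the E8 samples were not analysed here. The median level of the 7 factors was 29.3 RPKM, and it ran from 30.04 to 36.03 RPKM when either library was left out. It was 30.5 RPKM with the longest or the principal transcript as the length and 29.3 RPKM with TMM library sizes. POU5F1 moved from 1082 to 2206 RPKM with the principal transcript, so its ratios to other genes depend on the length used. The number of factors at least 2-fold apart was 1 under every scale, pseudocount and minimum tried, but with total reads that gene was PRDM14. The number of all genes 2-fold apart was 1761, and 3350 with no minimum, 711 with a minimum of 50 and 92 with a minimum at the level of FOXD3, the last chosen after the data were seen. No gap of a factor turned round under total reads, TMM or a pseudocount of 5. Depth gave counting errors on each level between 0.678% (POU5F1, replicate 2) and 7.14% (FOXD3, replicate 1). For POU5F1, PRDM14 and SALL4 the gap between the libraries was far wider than that. For FOXD3 and NANOG the RPKM intervals of the 2 libraries, which rest on total reads, overlapped. Those of ZFP42 did not, with 76.1 to 81.1 RPKM in replicate 1 and 68.4 to 72.9 in replicate 2. On normalized counts, ZFP42 was the factor whose interval included equal levels.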
